A study of Mus musculus with 12 samples.

Results

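Ubiquitin-conjugating enzyme (E2) genes, named Ube2, and ubiquitin-specific protease genes, named Usp, were examined for occupancy by Jmjd2a (Kdm4a) and Jmjd2c (Kdm4c), enzymes that take methyl groups off histone H3, in mouse leukaemia cells. Members were taken by symbol, as any gene name in the deposited tables that begins with Ube2, or with Usp and a digit. These were 74 of the 11874 gene names in the files, 32 of them Ube2 and 42 Usp. RefSeq lists 93 protein-coding genes with such symbols, 37 Ube2 and 56 Usp, and shares below are of these, so that genes with no peak count too. Usp6nl, a GTPase-activating protein for Rab proteins, and Ube2cbp, an E2-binding protein that acts as a ligase, fit by name only.

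Ubiquitin is a small protein that cells attach to others, singly or in chains, to mark them for the proteasome or to change their place or activity. An E1 enzyme activates ubiquitin, an E2 enzyme carries it, and an E3 ligase brings the E2 to the substrate, so that the E2 often decides which kind of chain is built. Deubiquitinases remove the mark, and the Usp enzymes are their largest family. Several members act on histones, on p53 or on proteins that leukaemia cells depend on.

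The cells are granulocyte-macrophage progenitor lines that carry the MLL-AF9 fusion (L-GMP), taken from mice with leukaemia on a C57BL/6 background. All carry floxed Jmjd2a, Jmjd2b and Jmjd2c alleles with CreERT2 at Rosa26, and all were kept in 20% fetal bovine serum with 10 ng/ml interleukin-3. Chromatin came from cells given 500 nM 4-hydroxytamoxifen (OHT), which activates the recombinase, for 96 h, and from untreated cells (Ctrl). The 12 libraries form 8 groups, with 1 OHT and 1 Ctrl library each for Jmjd2a and Jmjd2c, and 2 OHT and 2 Ctrl libraries each for H3K9me3 and H3K36me3. The labels do not say how many lines or mice they came from.

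The files hold 1 list of 8977 Jmjd2a peaks, 1 list of 10521 Jmjd2c peaks and 1 table of 6940 start-site windows bound by both. They carry no value per library, so depth is unknown, no replicate check exists, and neither the effect of OHT nor the 2 histone marks could be examined. Peak positions hold no level of a marker gene, so the labelled cell type could not be checked. A gene was called bound by a protein when one of that protein's peaks lay within 1000 bp of a start site named for it. Genes named for a window listed as bound by both were also called bound by both proteins. Among members, only the Jmjd2a call at Ube2j1 rested on such a window alone. Intervals are exact (Clopper-Pearson) 95% binomial intervals that cover counting error over genes only. Genes are not replicates, the members were proposed with earlier results of these data known, and no test was made between the families or against other genes. Width in bp is the length of a called peak and does not measure signal.

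Jmjd2a lay at a start site of 17 of 37 Ube2 genes (45.9%, interval 29.5 to 63.1) and of 29 of 56 Usp genes (51.8%, 38.0 to 65.3), beside 27.4% of all 26219 RefSeq genes. Jmjd2c lay at 31 Ube2 genes (83.8%, 68.0 to 93.8) and at 39 Usp genes (69.6%, 55.9 to 81.2), beside 37.9% of all genes. Both proteins were found at 16 Ube2 genes (43.2%, 27.1 to 60.5) and 27 Usp genes (48.2%, 34.7 to 62.0), beside 24.5% of all genes. All 6 shares lay above the share of all genes, and above the 33.5%, 46.3% and 30.0% of the 19945 protein-coding genes that have no Gm or Rik name. For Ube2 genes the lower ends of the Jmjd2a and both-protein intervals fell below these protein-coding shares. The intervals of the families overlapped each other for every class named here.

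Most members with Jmjd2a also had Jmjd2c, at shares close to that of all genes with Jmjd2a. Of the genes with Jmjd2a, 94.1% of the Ube2 genes and 93.1% of the Usp genes also had Jmjd2c, beside 89.5% of all genes with Jmjd2a. Read the other way, 51.6% of Ube2 genes with Jmjd2c and 69.2% of Usp genes with Jmjd2c also had Jmjd2a, beside 64.7% of all genes with Jmjd2c. Jmjd2c without Jmjd2a was found at 15 Ube2 genes (40.5%, 24.8 to 57.9) and 12 Usp genes (21.4%, 11.6 to 34.4), and at 13.4% of all genes. Neither protein was listed at 5 Ube2 genes (13.5%, 4.54 to 28.8) and 15 Usp genes (26.8%, 15.8 to 40.3), and at 59.2% of all genes. Jmjd2a alone was found at 1 Ube2 gene (2.7%, 0.0684 to 14.2) and 2 Usp genes (3.57%, 0.435 to 12.3), close to the 2.87% of all genes.

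**Figure D1:**
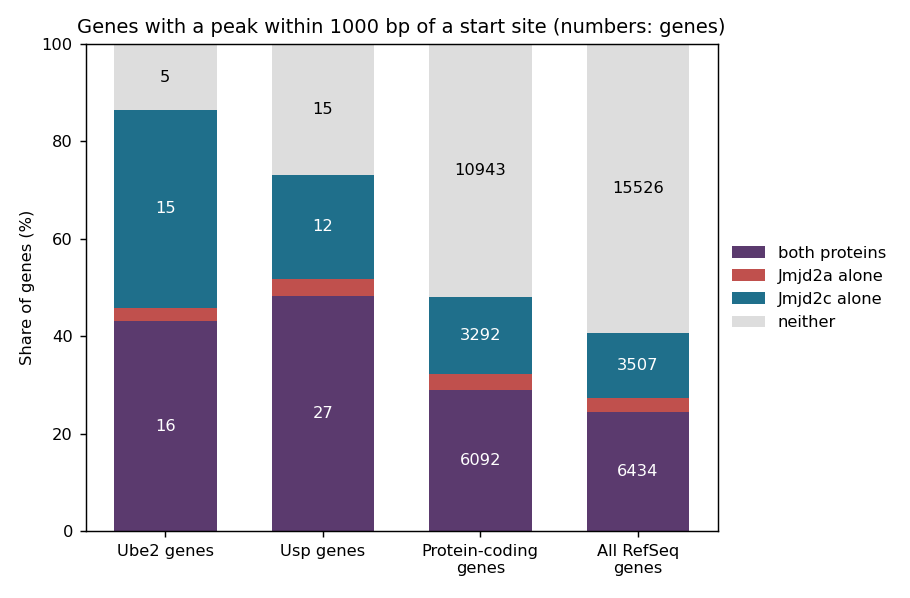
Share of genes in percent (vertical axis) with both proteins, Jmjd2a alone, Jmjd2c alone or neither within 1000 bp of a start site, for the 37 Ube2 genes, the 56 Usp genes, 21031 protein-coding genes and all 26219 RefSeq genes, with gene numbers inside the larger parts of each bar. The neither class holds 5 Ube2 and 15 Usp genes, and the Jmjd2c-alone class 15 and 12.

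The promoters below are shown as examples of 3 of the 4 classes: Ube2t, Ube2n and Usp15 had both proteins, Ube2c and Usp7 had Jmjd2c alone, and Usp13 and Usp17ld had neither. Each is the 250 bases before the RefSeq start, read along the gene from 5′ to 3′ (RefSeq, GRCm38.p6, the assembly of mm10). They lie at chr1:134962315-134962564 (Ube2t, plus strand), chr10:95514912-95515161 (Ube2n, plus), chr2:164769679-164769928 (Ube2c, plus), chr10:123197020-123197269 (Usp15, minus), chr16:8738343-8738592 (Usp7, minus), chr3:32817376-32817625 (Usp13, plus) and chr7:103252506-103252755 (Usp17ld, minus). Capitals mark letters searched for on both strands, so that a match on the other strand appears as the reverse complement. The letters were CCAAT for the CCAAT box, GGGCGG for the GC box, CCGGAAG for the ETS core and TATAAA for the TATA box.
Ube2t: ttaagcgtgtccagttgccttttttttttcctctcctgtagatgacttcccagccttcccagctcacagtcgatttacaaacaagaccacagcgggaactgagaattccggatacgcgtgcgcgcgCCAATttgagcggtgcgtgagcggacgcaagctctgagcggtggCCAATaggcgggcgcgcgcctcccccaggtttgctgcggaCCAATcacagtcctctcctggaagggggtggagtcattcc
Ube2n: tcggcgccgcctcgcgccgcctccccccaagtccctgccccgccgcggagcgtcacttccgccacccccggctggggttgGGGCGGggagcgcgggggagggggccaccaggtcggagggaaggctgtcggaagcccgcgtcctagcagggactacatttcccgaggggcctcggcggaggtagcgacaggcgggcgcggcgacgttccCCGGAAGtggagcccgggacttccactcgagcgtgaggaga
Ube2c: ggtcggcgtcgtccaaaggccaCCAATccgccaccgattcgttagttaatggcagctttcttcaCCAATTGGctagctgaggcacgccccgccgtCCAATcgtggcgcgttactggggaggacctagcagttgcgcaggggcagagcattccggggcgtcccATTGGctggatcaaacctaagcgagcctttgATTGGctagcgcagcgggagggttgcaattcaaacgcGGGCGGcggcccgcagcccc
Usp15: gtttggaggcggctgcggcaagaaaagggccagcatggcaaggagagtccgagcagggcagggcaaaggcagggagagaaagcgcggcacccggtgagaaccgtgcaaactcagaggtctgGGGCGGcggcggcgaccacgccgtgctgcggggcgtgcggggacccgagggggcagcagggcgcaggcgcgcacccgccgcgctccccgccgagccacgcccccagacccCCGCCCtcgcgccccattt
Usp7: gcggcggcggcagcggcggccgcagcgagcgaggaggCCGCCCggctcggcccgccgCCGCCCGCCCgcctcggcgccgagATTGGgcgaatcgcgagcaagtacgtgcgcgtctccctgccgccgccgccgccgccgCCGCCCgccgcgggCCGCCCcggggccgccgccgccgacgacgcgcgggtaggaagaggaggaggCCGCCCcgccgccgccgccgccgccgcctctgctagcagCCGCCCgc
Usp13: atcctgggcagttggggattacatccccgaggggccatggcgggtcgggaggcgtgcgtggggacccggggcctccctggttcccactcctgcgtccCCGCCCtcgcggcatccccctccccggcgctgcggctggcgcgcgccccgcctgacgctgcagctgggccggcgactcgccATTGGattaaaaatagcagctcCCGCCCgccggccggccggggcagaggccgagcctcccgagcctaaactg
Usp17ld: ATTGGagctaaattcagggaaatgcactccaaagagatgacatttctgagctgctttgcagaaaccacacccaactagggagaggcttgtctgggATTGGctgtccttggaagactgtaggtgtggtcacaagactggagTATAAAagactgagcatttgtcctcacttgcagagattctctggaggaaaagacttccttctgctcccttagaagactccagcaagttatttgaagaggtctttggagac

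Among all 19528 genes with a promoter sequence, 36% held the CCAAT letters, 41.1% the GC box, 8.94% the ETS core and 12% the TATA letters in this window. Ube2t held the CCAAT letters on the plus strand 3 times and Ube2c held them 6 times, with one pair overlapping on opposite strands. Usp7, the most CpG-rich member promoter, held 7 GC boxes, a pair of them overlapping. Usp17ld held no CpG and had the TATA letters.

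Among E2 genes of cell division, Ube2c, which starts chains on substrates of the anaphase-promoting complex, had a Jmjd2c peak of 828 bp over its start and no Jmjd2a peak. Ube2s, which lengthens those chains, had both proteins. Its Jmjd2a peak (856 bp) lay 592 bp upstream of the start, and of its 2 Jmjd2c peaks one covered the start (1374 bp) and the other lay with Jmjd2a upstream (824 bp, 810 bp shared). That Jmjd2a peak was the one closest to the 1000 bp limit among the peaks that decided a member's call. Just beyond the limit lay Usp44, at 1747 bp for Jmjd2a and 1918 bp for Jmjd2c.

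Ube2n, the E2 that builds chains through lysine 63 of ubiquitin, had a Jmjd2a peak of 775 bp ending 311 bp upstream of its start and a Jmjd2c peak of 1862 bp over the start. Its cofactors differed, since Ube2v2 had both proteins (1100 bp of Jmjd2a and 1027 bp of Jmjd2c) and Ube2v1 had Jmjd2c alone (1436 bp). Ube2a and Ube2b, the mammalian Rad6 enzymes that ubiquitinate histone H2B and PCNA, both had Jmjd2c alone, with peaks of 1429 and 1356 bp. Ube2t, the E2 of the Fanconi anaemia pathway, had the widest Jmjd2a peak of the family (1572 bp, chr1:134961502-134963073) beside a Jmjd2c peak of 1387 bp.

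The Ube2d enzymes work with many ligases. Ube2d1 and Ube2d2a had both proteins and Ube2d3 Jmjd2c alone, and the peak of Jmjd2a at Ube2d2a was the narrowest of the Ube2 family (395 bp). The Ube2e enzymes fell into 3 classes: Ube2e1 had both, Ube2e2 had Jmjd2a alone and Ube2e3 had Jmjd2c alone, with the widest Jmjd2c peak of the family (2544 bp). Of the E2 genes of endoplasmic reticulum-associated degradation, which feeds misfolded proteins to the proteasome, Ube2g1, Ube2j1 and Ube2j2 had both proteins and Ube2g2 had Jmjd2c alone (1760 bp). The widest Jmjd2a peak among these lay at Ube2j2 (1487 bp, over 2 listed start sites), followed by Ube2j1 (958 bp) and Ube2g1 (929 bp). At Ube2g1 a pair of Jmjd2a peaks flanked the start, one 44 bp upstream (891 bp) and one 240 bp downstream of it (929 bp). A single Jmjd2c peak of 2150 bp shared 620 bp with the upstream one and held the whole of the downstream one.

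The E2 genes described here for ubiquitin-like proteins had Jmjd2c. The NEDD8 enzymes, which activate cullin ligases, differed: Ube2f had both (738 bp of Jmjd2a inside 1511 bp of Jmjd2c) and Ube2m had Jmjd2c alone (1452 bp, over 3 listed start sites). Ube2l6, the E2 for the interferon-induced modifier ISG15, had Jmjd2c alone (1111 bp), as did Ube2r2, a partner of cullin ligases (1557 bp).

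Another 9 E2 genes, listed here as working with HECT, RBR or other ligases, all had Jmjd2c, and 4 of them had Jmjd2a. The shares were 83.8% and 45.9% for the whole Ube2 family, and 46.3% and 33.5% for protein-coding genes without Gm or Rik names. Ube2t, given above, is one of these. Ube2k, which builds chains through lysine 48 (2382 bp), Ube2w, which modifies protein N termini (2027 bp), Ube2l3, which serves HECT and RBR ligases (1276 bp), Ube2z, which takes ubiquitin from Uba6 (1233 bp), and Ube2h (1196 bp) had Jmjd2c alone. Ube2o, a fusion of E2 and ligase activity, had both (846 bp of Jmjd2a and 996 bp of Jmjd2c), as had Ube2q1 and Ube2q2. Every bound Ube2 gene except Ube2e2 had Jmjd2c, and in all 31 of them a Jmjd2c peak covered the start site itself.

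Of the 7 Usp genes listed here for action on p53 or its ligase Mdm2, all had Jmjd2c and 4 had Jmjd2a as well. These stand beside 69.6% and 51.8% of the Usp family and 46.3% and 33.5% of protein-coding genes without Gm or Rik names. Usp genes outside the list were not counted for this role. Usp7, which stabilises Mdm2 and p53, had Jmjd2c alone in a peak of 1703 bp. Usp10, a p53 deubiquitinase, had peaks of near equal extent, 1489 bp for Jmjd2a and 1529 bp for Jmjd2c, that shared 1461 bp. Usp15, which stabilises Mdm2, had 1768 bp of Jmjd2a wholly inside 2260 bp of Jmjd2c (chr10:123195602-123197861). Usp28, known for stabilising Myc, had 530 bp of Jmjd2a inside 820 bp of Jmjd2c. Usp4 (1976 bp) and Usp5, which takes apart free ubiquitin chains (1148 bp), had Jmjd2c alone. Another Jmjd2c peak, of 680 bp and 725 bp upstream of the Usp5 start, was listed for the neighbouring gene Cdca3 and covered a start site of that gene.

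Usp2 was the only member bound by both whose peaks did not overlap. Its Jmjd2a peak of 350 bp ended 69 bp upstream of a start site, and a Jmjd2c peak of 510 bp began 22 bp downstream of the same site, which leaves 90 bp between them. Another start site of Usp2 had a Jmjd2c peak of 508 bp and no Jmjd2a peak.

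Of the 5 Usp genes listed here for DNA repair, all had Jmjd2c and 2 had Jmjd2a, beside the same 46.3% and 33.5% of protein-coding genes. Usp1, which removes ubiquitin from PCNA and Fancd2 (1201 bp), Usp11, which acts in homologous recombination (1186 bp), and Usp47, which stabilises DNA polymerase beta (2278 bp), had Jmjd2c alone. Usp3 and Usp45, which acts on Ercc1, had both, with Jmjd2a peaks of 849 and 830 bp.

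Deubiquitinases listed here for histones H2A and H2B had Jmjd2c at 7 of 8 genes and Jmjd2a at 5, again beside 46.3% and 33.5% of protein-coding genes. Usp16, an H2A enzyme, had a Jmjd2a peak of 1596 bp that held the whole of its 1331 bp Jmjd2c peak. Usp22, the H2B enzyme of the SAGA complex, and its relatives Usp27x and Usp51 all had both proteins, with Jmjd2a peaks of 892, 979 and 612 bp. At Usp51 neither peak reached the start, the nearer edges lying 417 bp downstream for Jmjd2a and 391 bp downstream for Jmjd2c. Usp21, an H2A enzyme, had Jmjd2c alone (1000 bp), as had Usp49, an H2B enzyme, whose peak of 1861 bp ended 156 bp upstream of the start. Usp44, which acts on H2B and in the spindle checkpoint, had no peak within the limit, but peaks of both proteins overlapped by 971 bp inside the gene.

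Other Usp genes with known sites of action followed the same classes. Usp14, which sits on the proteasome, had 607 bp of Jmjd2a inside 1466 bp of Jmjd2c. Usp8, an endosomal enzyme, had 1175 bp of Jmjd2a and 1132 bp of Jmjd2c, and Usp30, of the outer mitochondrial membrane, 500 bp inside 1179 bp. Usp39, of the spliceosome, had 1167 bp of Jmjd2a and 1474 bp of Jmjd2c. Usp9x, an X-linked enzyme that stabilises Mcl1, had Jmjd2c alone, in the widest Jmjd2c peak of either family (2932 bp). Usp20, which acts on adrenergic receptors and Hif1a, had Jmjd2c alone too (1537 bp). Usp18, which removes ISG15 and restrains interferon signalling, had Jmjd2c at its start (900 bp), and a Jmjd2a peak of 924 bp with a Jmjd2c peak of 605 bp lay together about 26 kb downstream, beyond the end of the gene (26044 and 26266 bp from the start).

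The widest Jmjd2a peaks of the Usp family lay at Usp31 (2136 bp), Usp53 (1850 bp), Usp38 (1841 bp), Usp15, Usp16 and Usp10, all of which also had Jmjd2c. Usp38 was the member whose Jmjd2a peak most exceeded its Jmjd2c peak (1841 against 896 bp).

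**Figure D2:**
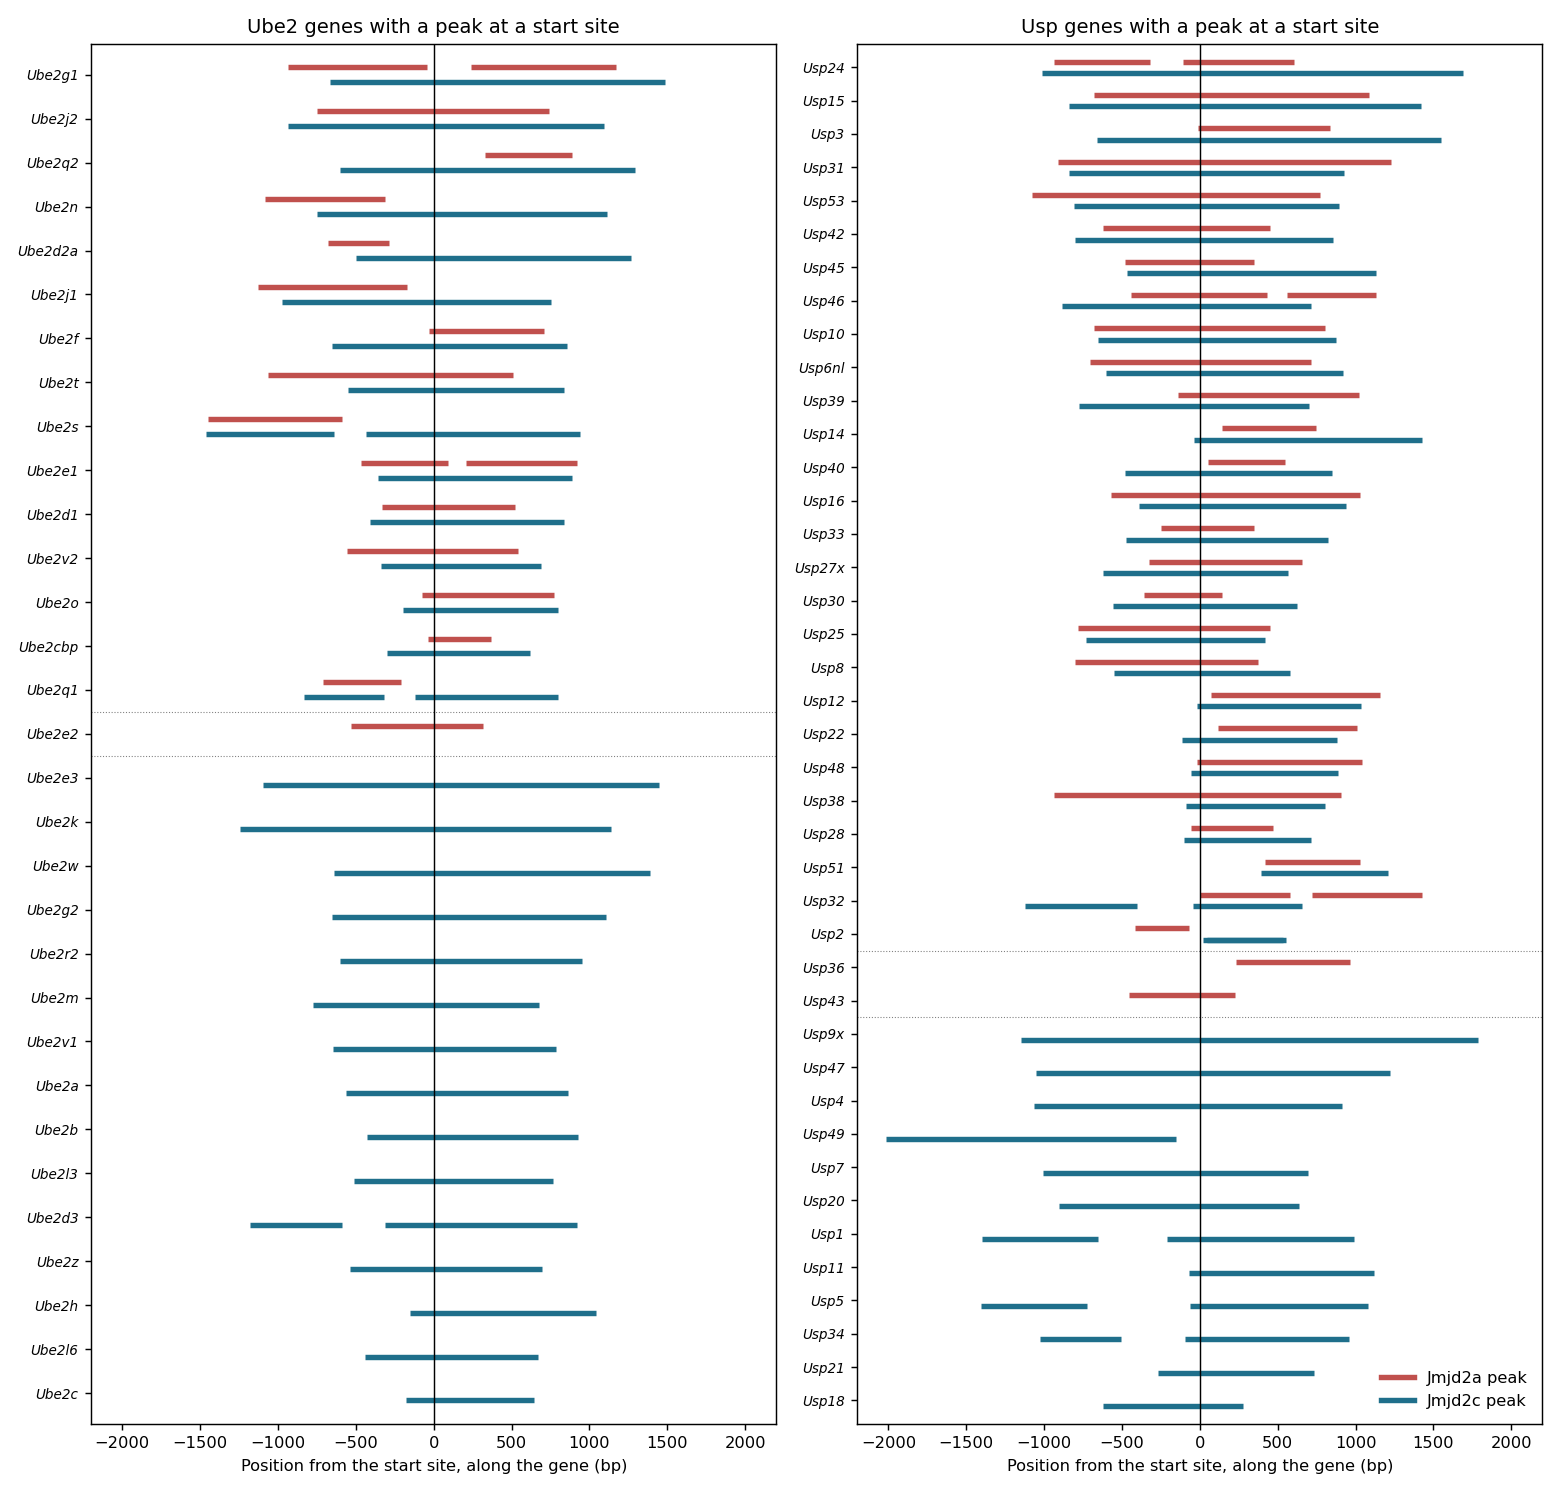
Extent of each Jmjd2a peak (upper bar, red) and Jmjd2c peak (lower bar, blue) around the start sites of bound members, in bp along the direction of the gene, with Ube2 genes on the left and Usp genes on the right. Dotted lines part the genes with both proteins, Jmjd2a alone and Jmjd2c alone, and genes run from wide to narrow Jmjd2c peaks. For genes with several start sites, each peak is placed at a site it lies next to.

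The 3 genes with Jmjd2a alone were Ube2e2 (854 bp over the start), Usp43 (681 bp over the start) and Usp36, a nucleolar enzyme known for stabilising Myc, where 734 bp lay 234 bp downstream of the start. The nearest Jmjd2c peak lay 561106 bp away for the peak at Ube2e2, 42845 bp for that at Usp43 and 40277 bp for that at Usp36. No Jmjd2c peak therefore lay near the 1000 bp limit at any of them.

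Neither protein was listed at 20 members, 19 of which do not appear in the files at all. They were Ube2d2b, Ube2dnl1, Ube2dnl2, Ube2ql1 and Ube2u, and Usp13, Usp17la, Usp17lb, Usp17lc, Usp17ld, Usp17le, Usp19, Usp26, Usp29, Usp35, Usp37, Usp44, Usp50, Usp54 and Usp9y. The list of germ-line and tandem Usp genes, which holds the 5 Usp17l genes, Usp26 and Usp29, and Y-linked Usp9y, had Jmjd2a at 0 and Jmjd2c at 0 of 8. Neither protein was listed at 50.3% of protein-coding genes without Gm or Rik names. Usp17la, also called Dub1, is known as a gene that interleukin-3 induces in mouse blood cell lines, and these cells were grown with that cytokine. Short reads from near-identical copies, such as the Usp17l genes, may not map uniquely, and the sources used here do not give how such reads were treated.

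For 3 of these genes the listing depended on which start site the files name. RefSeq places the start of Usp35 214 bp from that of Kctd21, and peaks of both proteins covered it (1349 bp of Jmjd2a and 1277 bp of Jmjd2c) but were listed for Kctd21. At Usp37, which acts on cyclin A, a Jmjd2c peak of 2377 bp covered the RefSeq start and a Jmjd2a peak of 330 bp lay 530 bp from it, both listed for Rqcd1. At Usp29, an imprinted gene next to Peg3, a Jmjd2a peak of 1271 bp listed for Peg3 lay 332 bp from the start. With RefSeq starts added, Usp genes with Jmjd2a numbered 32, those with Jmjd2c 41 and those with both 29, and the Ube2 counts stayed at 17, 31 and 16. This alternative was chosen after the data were seen.

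Jmjd2a peaks at Ube2 genes lay off the start site more than Jmjd2c peaks did. Of 19 Jmjd2a peaks at Ube2 genes 10 covered the start (52.6%), 6 lay upstream and 3 downstream. Of 32 at Usp genes 21 covered it (65.6%), 2 lay upstream and 9 downstream, and of all 6908 Jmjd2a peaks within the limit 66.7% covered a start. Jmjd2c peaks covered the start in 31 of 34 cases at Ube2 genes (91.2%) and 36 of 44 at Usp genes (81.8%), beside 91.0% of all 9053. At 7 Ube2 genes (Ube2d2a, Ube2g1, Ube2j1, Ube2n, Ube2q1, Ube2q2 and Ube2s) no Jmjd2a peak touched the start, and at 8 Usp genes (Usp2, Usp12, Usp14, Usp22, Usp32, Usp36, Usp40 and Usp51). Several genes had more than one peak of a protein at 1 start site. Jmjd2a did so at Ube2e1 and Ube2g1 and at Usp24, Usp32 and Usp46, and Jmjd2c at Ube2d3, Ube2q1 and Ube2s and at Usp1, Usp5, Usp32 and Usp34. Among these, a 596 bp peak at Ube2d3 and the 680 bp peak at Usp5 were listed only for a neighbouring gene. Whether the families differ in position was not tested.

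Over the start-site windows that the deposited table lists as bound by both, Jmjd2a peaks covered most Ube2 sites at 325 bp upstream, where 13 of 19 were covered (68.4%). This maximum rests on few sites, since 11 of 19 (57.9%) were covered at 300 bp downstream. For Usp sites the highest coverage by Jmjd2a was 24 of 27 (88.9%) at 125 bp downstream, and for all 6940 sites it was 77.5% at 200 bp downstream. At the start itself Jmjd2a covered 52.6% of Ube2 sites, 74.1% of Usp sites and 67.2% of all sites. Jmjd2c covered 100% of the Ube2 sites and 92.6% of the Usp sites there, beside 94.1% of all. The 19 Ube2 sites come from 16 genes, and sites of one gene share peaks.

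**Figure D3:**
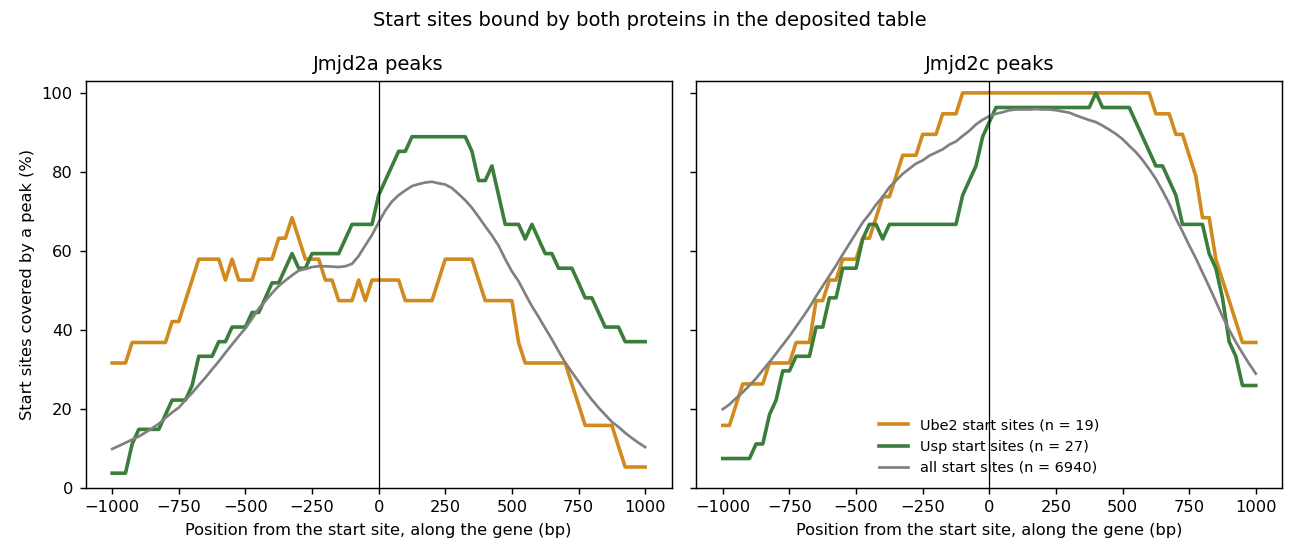
Percent of start sites covered by a peak (vertical axis) at each position along the gene in bp from the start, for Jmjd2a (left) and Jmjd2c (right), at 19 Ube2, 27 Usp and all 6940 start sites of the table of sites bound by both. The Jmjd2a line of the Ube2 sites is highest upstream, at 68.4%, with 57.9% at 300 bp downstream. That of the Usp sites is highest downstream, at 88.9%.

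Jmjd2a peaks were the narrower of the pair at most members. Their median width was 846 bp at Ube2 genes (n = 19 peaks) and 862 bp at Usp genes (n = 32), beside 761 bp for all such peaks. Median widths for Jmjd2c were 1380.5 bp at Ube2 genes (n = 34) and 1193.5 bp at Usp genes (n = 44), beside 1366 bp for all. Among genes with both, the widest Jmjd2a peak exceeded the widest Jmjd2c peak at 2 of 16 Ube2 genes, Ube2t and Ube2v2, and at 8 of 27 Usp genes. Jmjd2c peaks were of similar width with and without Jmjd2a. The median of the widest Jmjd2c peak was 1449 bp at Ube2 genes with both and 1429 bp at those with Jmjd2c alone, and 1331 and 1369 bp at the same classes of Usp genes.

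**Figure D4:**
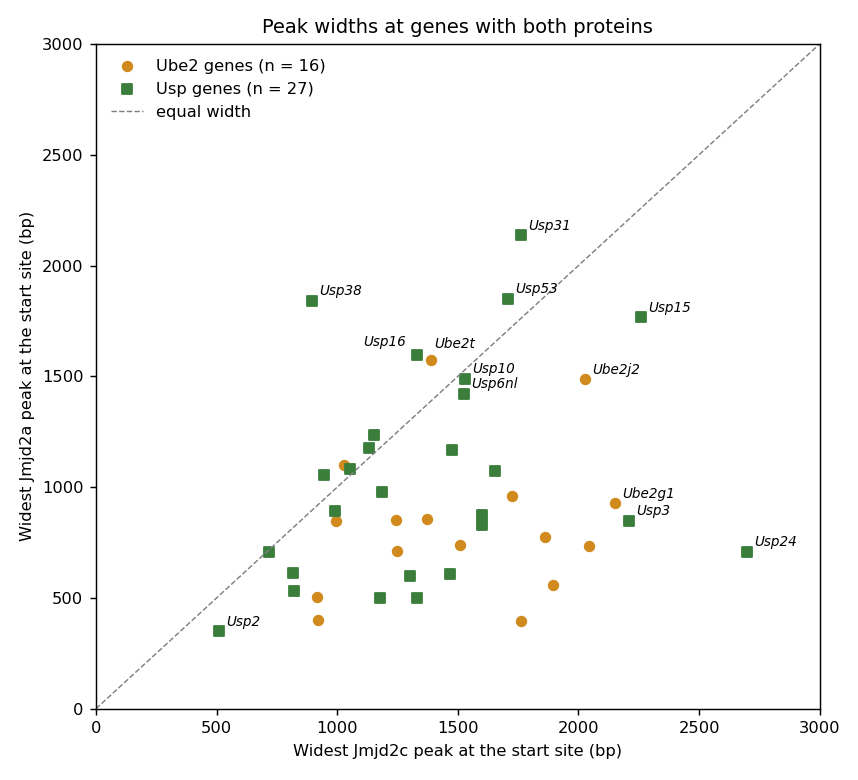
Width in bp of the widest Jmjd2a peak (vertical axis) against that of the widest Jmjd2c peak (horizontal axis) at the 16 Ube2 (circles) and 27 Usp (squares) genes with both proteins. The dashed line marks equal width, and 2 Ube2 and 8 Usp genes lie above it.

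Of 16 groups of paralogues, which were put together after the calls were seen, 7 had all members in one class and 9 did not. Over all 93 members, 46.2% had both proteins, 29% Jmjd2c alone, 3.23% Jmjd2a alone and 21.5% neither. How often unrelated members share a class was not counted, so the groups do not show whether relatives differ more or less than other members. Usp25 and Usp28 had both proteins, as had Usp12 and Usp46, which share the activator Wdr48. Usp15 had both whereas its relatives Usp4 and Usp11 had Jmjd2c alone, Usp33 had both and Usp20 Jmjd2c alone, and Usp53 had both and Usp54 neither.

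Some members share a promoter with another gene on the opposite strand. Start sites of this kind were found within 1000 bp upstream of 6 Ube2 genes and 6 Usp genes among the bound members. The Ube2 genes were Ube2g1, Ube2j1, Ube2v1, Ube2d3, Ube2h and Ube2q1, with 76 to 209 bp between the start sites. Among the Usp genes these were Usp15, Usp20, Usp27x, Usp5, Usp12 and Usp28, with 53 to 869 bp between them. At Usp5 the partner was Cdca3, a cell-cycle gene, 729 bp away. The partner of Ube2j1 was 4933421O10Rik, 102 bp away, and the Jmjd2a peak of 958 bp there was listed for the partner. For such genes the files cannot tell which gene a peak belongs to.

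Promoter sequence was available for 73 of the 93 members. For 45 of these it was a promoter starting within 5 bp of a start site given with the peaks. For the rest, which include all 18 members with neither, and for all other genes, the promoter of lowest coordinate was taken. Promoters of most bound members were thus chosen in another way than those of members with neither and of all genes, which limits the comparisons. In the 250 bases before the start, CpG dinucleotides had a median of 24 at the 33 members with both proteins, 24.5 at the 20 with Jmjd2c alone and 5.5 at the 18 with neither. The same classes of all genes had medians of 18, 16 and 3. Few promoters without a peak were rich in CpG, with 20 or more at Ube2ql1 (24), Usp13 (28), Usp35 (25) and Usp37 (28), and the last 2 are those with peaks at their RefSeq start. A GC box was present in 69.7% of members with both, 75% with Jmjd2c alone and 27.8% with neither, beside 63.1%, 61.9% and 24.1% of all genes of these classes. CCAAT letters were present in 15.2%, 30% and 61.1% of the same member classes, beside 37.4%, 35.5% and 35.8% of all genes. ETS core letters were found at 27.3% and 15.0% of the bound classes and at none of the 18 members with neither, beside 16.9%, 16.1% and 3.47% of all genes. The TATA letters were held by 6.06%, 5% and 27.8%, beside 4.71%, 6.09% and 17.3%. These are letter matches in one window, and the classes of members are small. Among members with neither, near-identical Usp17l copies were counted separately. Usp17la, Usp17lb, Usp17lc and Usp17ld all held the CCAAT letters, and Usp17lb, Usp17lc and Usp17ld also the TATA letters.

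**Figure D5:**
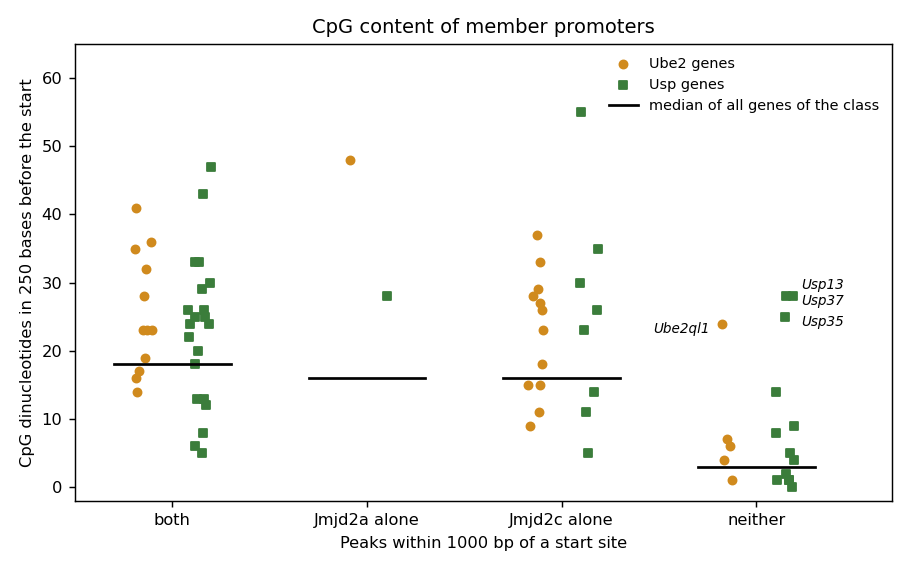
Number of CpG dinucleotides in the 250 bases before the start (vertical axis) of 73 member promoters by class, with Ube2 genes as circles, Usp genes as squares and the median of all genes of the class as a line. The line of their class is exceeded by 23 of 33 members with both, 13 of 20 with Jmjd2c alone and 12 of 18 with neither. Of the 18 with neither, 4 reach 20 or more.

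Genes of neighbouring steps of the pathway were counted in the same way, to be read beside Jmjd2a at 33.5% and Jmjd2c at 46.3% of protein-coding genes without Gm or Rik names. Of 10 E1 genes, 5 had Jmjd2a and 9 had Jmjd2c. Among 6 E2 genes without the Ube2 name 3 had Jmjd2a and 5 had Jmjd2c, Cdc34, the main E2 of cullin ligases, having both. Cullin ligase core genes had Jmjd2a at 5 and Jmjd2c at 9 of 10. Of 36 deubiquitinases of other families, 22 had Jmjd2a and 30 had Jmjd2c, and all 22 with Jmjd2a also had Jmjd2c, beside 89.5% of all genes with Jmjd2a.

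Peaks within 1000 bp of a member start site, a few of them listed for a neighbouring gene, were counted with peaks listed for members beyond it. Beyond 1000 bp lay 4 of 55 such Jmjd2a peaks (7.27%) and 8 of 86 such Jmjd2c peaks (9.30%), beside 23% of all Jmjd2a and 14% of all Jmjd2c peaks. These shares were not tested. For Ube2 genes there were 0 Jmjd2a peaks and 2 Jmjd2c peaks beyond the limit, the latter 2657 bp upstream of Ube2v1 and 91690 bp from the start of Ube2cbp inside the gene. For Usp genes there were 4 Jmjd2a peaks and 6 Jmjd2c peaks beyond it. Beyond those of Usp18 and Usp44, the Jmjd2a ones lay 74755 bp downstream of the start of Usp12 and 65395 bp downstream of that of Usp38. The Jmjd2c ones lay 43810 and 45459 bp upstream of the start site listed for Usp7, which is inside the RefSeq bounds of that gene. Others lay 39185 and 66185 bp downstream of the start of Usp46, where they touched exons. The files assign such peaks by the nearest start site only.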

How the data were processed

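The authors deposited, per the file headers, positions in bp of called Jmjd2a and Jmjd2c peaks with the RefSeq features under each, the nearest start site and its distance, and a table of windows of start sites bound by both. These are positions and distances, with no height, score or value per library. The tools named per the submitters' processing notes are bedtools 2.25.0, Bowtie 0.12.7 and SAMtools, on mm10. Which caller and cutoff gave the peaks, with what control and from which libraries, pooled or not, is not stated, nor is the rule behind the table. Unknown depths and thresholds affect how many and how wide the peaks are.

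Positions were read as counting from 0 with an open end and are printed counting from 1. The distance was recomputed from positions and equalled the deposited one for 8441 of 8441 Jmjd2a and 8981 of 8981 Jmjd2c peaks with 1 start site. Gene names, strands of start sites and promoters came from RefSeq tables on GRCm38.p6. The background was 26219 genes with a curated RefSeq transcript. Another 8 non-coding symbols fit the name pattern and were not counted. Only the 250 bases before the RefSeq start were searched for motifs.

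Members and lists were chosen with earlier results of these data known. Genes named with values are those with Jmjd2a alone, those with neither, the 6 widest per class and family, members with shared promoters or several start sites, and members of role lists. The paralogue groups, and genes named beyond this rule, were chosen after their values were seen. Alternatives were other windows, covering peaks only, the wider 50% of each list, and other backgrounds and start sites. Some genes that the rule names are not reported here, though counts include them. Replicates could not be compared. Distances were tested on simulated peaks. Python 3.11.15, numpy 2.4.6, pandas 2.3.3, scipy 1.17.1 and matplotlib 3.10.9 were used.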

Additional observations from a re-analysis of the deposited data

How the results depend on the processing

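Of 58 alternative values, 46 stayed close to the reported one and 12 moved. For counts of members, close meant within 1.5 times, which includes sizeable losses. With the wider 50% of each list, Jmjd2a was left at 12 Ube2 and 21 Usp genes (17 and 29 reported), counted as close. Shares of all genes were counted as moved on smaller changes, such as 27.4% to 32.3% for Jmjd2a. Keeping only peaks that cover the start site left 10 Ube2 genes with Jmjd2a (17 reported) and 9 with both (16 reported). Keeping the wider 50% of each peak list left Jmjd2c at 19 Ube2 and 20 Usp genes (31 and 39 reported), and both proteins at 7 Ube2 and 12 Usp genes (16 and 27 reported), since fewer peaks were then used. Against protein-coding genes only, the shares of other genes were 32.3% for Jmjd2a, 44.6% for Jmjd2c and 29.0% for both, and without Gm and Rik names 33.5%, 46.3% and 30.0%. Windows of 500 and 5000 bp, list names alone, members without Usp6nl and Ube2cbp, and, both added after the data were seen, RefSeq starts and autosomal members only kept every count within 1.5 times. The share of member peaks overlapping the other protein was 64.2% for Ube2 and 71.1% for Usp genes, and ranged over the overlap rules tried between 64.2% and 67.9% and between 69.7% and 76.3%. By protein, 94.7% of Jmjd2a and 47.1% of Jmjd2c peaks at Ube2 genes overlapped, and 87.5% and 59.1% at Usp genes. Over all genes these shares were 86.9% and 61.6%. No paired analysis was possible because the files hold no value per library. Leaving out a replicate was not possible for the same reason. Depth is unknown, so a gene with no listed peak was not detected at the authors' threshold, which does not show that the protein is absent there.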
